A study of Mus musculus with 6 samples.

Results

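A set of 35 macrophage and myeloid cell genes was followed in kidneys of mutant and wild-type mice. The set was chosen by symbol, with earlier results of these data known. Each gene was represented by the probe, among those annotated to that symbol alone, with the highest mean over all 6 arrays. Probes were found for 32 of the 35 genes, out of 18048 genes with such a probe on the array. Csf1r, Cd68 and Cd52 had none (the Cd52 probe is annotated to a second gene as well) and were not analysed here. Of the 32, 28 passed the filters on missing and dim values and were tested. The other 4, Csf1, Il34, Cybb and Cd163, were too dim.

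The samples came from 6 animals, 3 homozygous for a mutation, which the sample titles call KO, and 3 wild type, with 1 single-colour CodeLink oligonucleotide array per animal. Each sample was a piece of kidney frozen after the blood vessels had been flushed with saline. The labels name neither the mutated gene nor the strain, age or sex, so the mutation could not be set against its own transcript. Values below are intensities in multiples of the array median, differences are mutant minus wild type on the log2 scale with the standard error (SE) of a limma fit (n = 3 arrays per genotype, or fewer where stated), and adjusted p is from that fit by the Benjamini-Hochberg method over all 25834 probes tested. A gene is said to have risen past an adjusted p of 0.05. A probe under 1.51 times the array median is called below the low-signal limit, and a difference read against such a probe is given as a bound, "at least N-fold".

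Macrophages are resident phagocytes of the kidney interstitium and are joined by blood monocytes when tissue is injured. They depend on the receptor CSF1R and its ligands CSF1 and IL-34, and on the transcription factor PU.1, which Spi1 encodes. They take up antibody-coated and damaged material through Fc and scavenger receptors, and the activating receptors signal through the adaptor chains FcRγ (Fcer1g) and DAP12 (Tyrobp). Macrophages exposed to interleukin-4 or interleukin-13 adopt a state called alternative activation, with the mannose receptor Mrc1 and the secreted Retnla among its usual markers in mice.

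In mutant kidneys 12 of the 28 members tested rose and 0 fell (limma), against 5.68% of all 14796 genes tested that rose and 1.59% that fell. At an unadjusted p under 0.05, 17 members were higher and 0 lower, against 14.6% and 6.31% of all genes tested. As the members and the lists below were chosen with earlier results known, such shares are a description and no test. The genes that rose were Lyz2, Aif1, Pld4, Itgax and Itgb2, the Fc receptors Fcgr1 and Fcgr3, the adaptors Fcer1g and Tyrobp, the receptors Cd14 and Trem2, and the alternative-activation gene Retnla. Their differences lay between 0.87 and 3.54. The median difference was 1.11 over the 28 members and 0.08 over all genes tested, and with genes below the low-signal limit set at their bound it was 0.83 over the members. All 3 mutant arrays were above all 3 wild-type arrays for 17 of the 28 members, against 17.1% of the genes tested and measured on 6 arrays. In a piece of tissue, more cells of a type and more RNA per cell cannot be told apart.

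**Figure D1:**
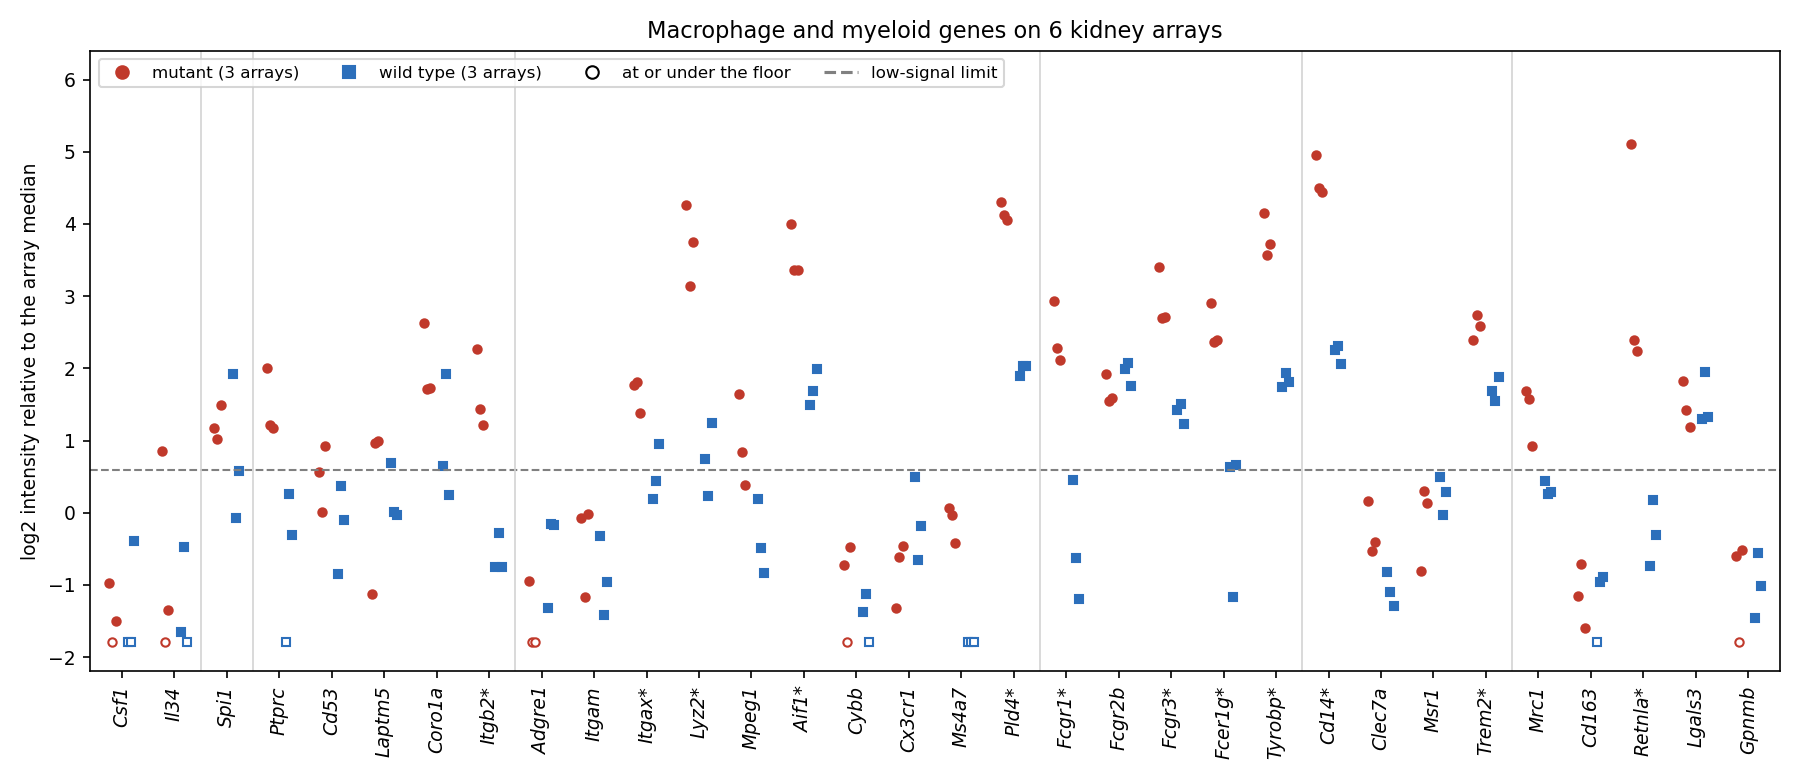
Log2 intensity relative to the array median (vertical axis) of the 32 members with a probe, grouped by role from growth factors on the left to alternative activation on the right. Red circles are the 3 mutant arrays and blue squares the 3 wild-type arrays, open symbols are values at or under the floor used in the fit, the dashed line is the low-signal limit of 0.59, and asterisks mark the 12 genes that rose. Cd14, Pld4, Tyrobp, Aif1 and Fcgr3 separate completely and above the limit, while Fcgr2b and Lgals3 overlap.

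Of the 3 genes fixed as markers of the set, Cd14, Csf1r and Cd68, only Cd14 could be read. Cd14 encodes the co-receptor for bacterial lipopolysaccharide, and its probe stood at 31.0, 22.7 and 21.8 times the array median in mutants, against 4.79, 4.96 and 4.19 in wild type. All 6 arrays were above the low-signal limit and the groups were far apart. The difference was 2.42 ± 0.17 (SE), or 5.36-fold (limma, adjusted p = 2.28e-06). The common macrophage markers Adgre1 and Itgam (CD11b) lay below the limit on all 6 arrays, so the label macrophage rests here on the other genes of the set. The kidney origin was plain, with 13 of 16 tubule and glomerulus markers above the limit in both genotypes.

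To show the sequences next to which these transcripts start, 6 promoter windows are printed, for the Fc receptor genes and FcRγ, which include members that rose and one that did not, and for Pld4 and Aif1, which had a clear signal on every array. Each runs from 250 bases before to 50 bases after the transcription start, 5′ to 3′ on the gene's strand, from RefSeq (GRCm38.p6), and capitals mark the core of the PU box, the purine-rich element that PU.1 binds, GAGGAA or its reverse complement TTCCTC.
Fcgr1, chr3:96293920-96294219, minus strand: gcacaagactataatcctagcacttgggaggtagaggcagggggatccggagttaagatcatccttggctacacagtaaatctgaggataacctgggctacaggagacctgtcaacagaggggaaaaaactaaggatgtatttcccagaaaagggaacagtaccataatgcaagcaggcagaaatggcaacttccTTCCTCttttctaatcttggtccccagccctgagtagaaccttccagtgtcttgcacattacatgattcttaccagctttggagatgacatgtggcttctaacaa
Fcgr3, chr1:171059354-171059653, minus strand: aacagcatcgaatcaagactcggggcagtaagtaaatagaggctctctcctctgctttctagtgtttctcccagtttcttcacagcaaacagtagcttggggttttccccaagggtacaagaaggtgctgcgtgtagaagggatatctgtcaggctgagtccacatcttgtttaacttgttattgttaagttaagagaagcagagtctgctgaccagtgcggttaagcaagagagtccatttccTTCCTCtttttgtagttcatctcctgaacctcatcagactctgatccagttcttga
Fcer1g, chr1:171234300-171234599, minus strand: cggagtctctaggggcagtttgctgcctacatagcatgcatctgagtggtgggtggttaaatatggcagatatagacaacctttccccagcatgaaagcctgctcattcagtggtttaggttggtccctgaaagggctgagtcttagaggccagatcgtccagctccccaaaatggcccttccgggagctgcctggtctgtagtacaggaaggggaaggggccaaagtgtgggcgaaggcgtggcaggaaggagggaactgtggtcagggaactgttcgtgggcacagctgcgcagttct
Fcgr2b, chr1:170976022-170976321, minus strand: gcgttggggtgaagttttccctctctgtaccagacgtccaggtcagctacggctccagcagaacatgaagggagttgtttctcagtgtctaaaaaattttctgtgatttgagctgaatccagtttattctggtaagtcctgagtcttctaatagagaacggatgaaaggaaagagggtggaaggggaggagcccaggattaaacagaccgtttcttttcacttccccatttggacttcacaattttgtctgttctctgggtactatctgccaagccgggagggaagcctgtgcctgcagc
Pld4, chr12:112760405-112760704, plus strand: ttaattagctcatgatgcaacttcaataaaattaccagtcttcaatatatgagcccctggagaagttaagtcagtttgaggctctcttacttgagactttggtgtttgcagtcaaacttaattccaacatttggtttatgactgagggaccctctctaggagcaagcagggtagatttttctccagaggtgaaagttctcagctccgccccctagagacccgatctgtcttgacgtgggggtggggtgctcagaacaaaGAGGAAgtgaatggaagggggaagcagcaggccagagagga
Aif1, chr17:35176003-35176302, minus strand: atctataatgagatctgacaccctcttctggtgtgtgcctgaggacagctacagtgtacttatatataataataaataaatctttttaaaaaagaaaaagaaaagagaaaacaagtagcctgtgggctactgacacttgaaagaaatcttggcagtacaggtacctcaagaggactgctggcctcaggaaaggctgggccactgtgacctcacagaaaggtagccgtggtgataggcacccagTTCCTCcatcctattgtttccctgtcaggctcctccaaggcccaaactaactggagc
The core was present in 6 of the 9 members that rose and had a window (Aif1, Pld4, Fcgr1, Fcgr3, Trem2 and Retnla) and in 7 of the 13 that did not pass and had one, against 28.3% of all 32851 windows of 300 bases. The longer form GAGGAAGT, which contains the core, or its reverse complement, was in 2 of those 9, Pld4 and Retnla, and in 1 of those 13, Cd53, against 3.2% of all windows. A member was counted if any of its windows held the match, while the shares are over single windows, so counts and shares are not on the same footing. Fcgr3 has 2 such windows, and the first is shown. These are matches of letters in a short window and describe no binding. In the windows shown, the first base of the match lies at -55 from the start in Fcgr1, -6 in Fcgr3, -7 in Aif1 and 9 in Pld4, and the Fcer1g and Fcgr2b windows hold no match.

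The growth factors of the lineage gave no readable signal. Csf1 stood at 0.510, -0.118 and 0.355 times the array median in mutants, against 0.0693, 0.134 and 0.760 in wild type. Il34 stood at 1.81, 0.128 and 0.392 in mutants, against 0.317, 0.718 and 0.226 in wild type. Both probes were below the low-signal limit in the mean of each genotype, with only the Il34 value of mutant replicate 1 above it. Neither ligand was tested, since both probes were among the 25% with the lowest mean level. Spi1, the gene of PU.1, was above the limit on all mutant arrays at 2.26, 2.03 and 2.80, against 3.80, 0.951 and 1.49 in wild type. The groups overlapped through wild-type replicate 1, and the difference of 0.42 ± 0.43 did not pass (limma, adjusted p = 0.70), with a 95% interval from -0.51 to 1.35.

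Among 5 pan-leukocyte genes with a probe, 1 rose, against 5.68% of all genes tested. Itgb2, the β2 integrin chain CD18 shared by the leukocyte integrins, stood at 4.81, 2.71 and 2.33 times the array median in mutants, against 0.592, 0.826 and 0.592 in wild type. Wild-type values were all below the low-signal limit, so the mutant level was at least 2.07-fold higher (difference 2.24 ± 0.39, limma, adjusted p = 0.00374). Ptprc, the pan-leukocyte phosphatase CD45, stood at 4.01, 2.32 and 2.25 in mutants, against -0.165, 1.20 and 0.811 in wild type. The groups did not overlap, but the value below 0 was dropped from the fit, which left 2 wild-type arrays, and the difference of 1.48 ± 0.40 fell short of the threshold (limma, adjusted p = 0.0522). Without wild-type replicate 1, the array of the dropped value, the Ptprc difference stayed at 1.48 and the limma adjusted p was 0.0452. Coro1a, an actin-binding protein of leukocytes, stood at 6.20, 3.27 and 3.31 in mutants, against 1.56, 3.79 and 1.19 in wild type. Here wild-type replicate 2 lay among the mutants (difference 1.08 ± 0.40, limma, adjusted p = 0.162), and without it the adjusted p was 0.0227. A second, dimmer Coro1a probe was below the limit on all 6 arrays and differed by 0.84 ± 0.55. Cd53, a tetraspanin, and Laptm5, a lysosomal protein of blood cells, averaged below the limit in either genotype, with differences of 0.70 ± 0.46 and 0.06 ± 0.55. Laptm5 stood at 0.456 in mutant replicate 1, against 1.96 and 1.99 in the other mutants, and without that array its difference was 0.76.

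Of 10 pan-macrophage genes with a probe, 9 were tested and 4 rose, against 5.68% of all genes tested. Lyz2, the lysozyme of phagocytes, stood at 19.2, 8.85 and 13.5 times the array median in mutants, against 1.67, 1.17 and 2.37 in wild type. Every mutant array was above every wild-type array, and the difference of 2.98 ± 0.30, or 7.91-fold, had an adjusted p of 3.54e-05 (limma), with wild-type replicate 2 below the limit. Mice carry a close copy, Lyz1, and whether its transcript adds to this probe was not tested. Pld4, an endolysosomal exonuclease of myeloid cells, stood at 19.8, 17.4 and 16.6 in mutants, against 3.72, 4.09 and 4.09 in wild type. Arrays of a genotype lay close together for Pld4, which had the smallest SE of the set (2.18 ± 0.15, 4.52-fold, limma, adjusted p = 2.4e-06). Aif1, which encodes the calcium-binding protein Iba1, stood at 16.0, 10.3 and 10.3 in mutants, against 2.81, 3.21 and 3.97 in wild type. No array fell below the limit, and Aif1 rose by 1.86 ± 0.21, or 3.62-fold (limma, adjusted p = 0.000121).

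Itgax, the integrin chain CD11c of dendritic cells and some macrophages, stood at 3.42, 3.51 and 2.61 times the array median in mutants, against 1.14, 1.36 and 1.93 in wild type. The groups did not overlap, yet the call was marginal (difference 1.13 ± 0.31, at least 1.93-fold with 1 of 3 wild-type arrays above the limit, limma, adjusted p = 0.0495). It was lost without any single array other than wild-type replicate 3, with an adjusted p of 0.161, 0.208 and 0.0753 without mutant replicate 1, 2 and 3 and of 0.0999 and 0.0986 without wild-type replicate 1 and 2. Mpeg1, the pore-forming perforin-2, stood at 3.13, 1.79 and 1.31 in mutants, against 1.14, 0.713 and 0.562 in wild type. These groups also did not overlap, with wild type below the limit throughout, and the difference of 1.33 ± 0.45 did not pass (limma, adjusted p = 0.129). Ms4a7, a tetraspan protein of macrophages, ran between 0.744 and 1.05 in mutants and between -0.198 and 0.281 in wild type, all below the limit, and its difference of 1.66 ± 0.57, from 2 wild-type arrays, did not pass. Adgre1, Itgam and the fractalkine receptor gene Cx3cr1 were below the limit on all 6 arrays, with differences of -0.82 ± 0.64 (2 mutant arrays), 0.48 ± 0.55 and -0.68 ± 0.51, and Cybb, the catalytic chain of the phagocyte oxidase, was below it on all 6 and not tested. For these dim probes a difference in transcript level was not detectable.

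Of the 3 Fc receptor genes in the set, the activating Fcgr1 and Fcgr3 rose and the inhibitory Fcgr2b did not pass. Fcgr1, the activating high-affinity IgG receptor CD64, stood at 7.62, 4.86 and 4.34 times the array median in mutants, against 1.37, 0.645 and 0.435 in wild type. Wild type was below the low-signal limit on every array, so Fcgr1 was at least 3.61-fold higher (difference 2.90 ± 0.41, limma, adjusted p = 0.000726). Fcgr3, an activating low-affinity IgG receptor, stood at 10.6, 6.47 and 6.52 in mutants, against 2.68, 2.83 and 2.34 in wild type. No array fell below the limit, and Fcgr3 rose by 1.55 ± 0.23, or 2.94-fold (limma, adjusted p = 0.000912). Fcgr2b, the inhibitory IgG receptor, which B cells, macrophages and endothelial cells also express, stood at 3.79, 2.92 and 3.01 in mutants, against 3.99, 4.20 and 3.37 in wild type. The Fcgr2b groups overlapped, and its difference of -0.26 ± 0.22 (limma, adjusted p = 0.632) had a 95% interval from -0.73 to 0.22. The extracellular parts of Fcgr2b and Fcgr3 are similar in sequence, and cross-hybridisation between their probes was not tested. Fcgr4, a further activating IgG receptor gene, is no member but one of the Fc receptor and ITAM signalling list, and is named after its values were seen. It stood at 1.66, 1.35 and 1.56 in mutants, against 0.763, 0.724 and 0.737 in wild type, and its difference of 1.03 ± 0.40 did not pass (limma, adjusted p = 0.197).

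**Figure D2:**
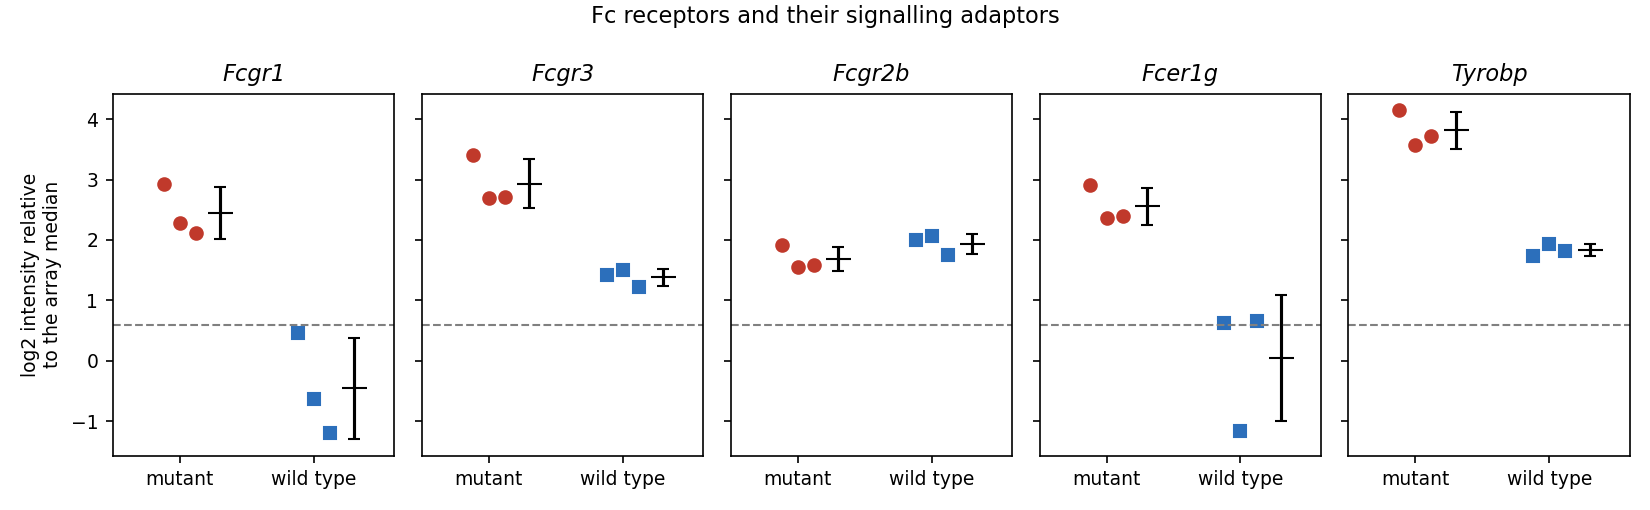
Log2 intensity relative to the array median (vertical axis, shared) of 3 Fc receptor genes and 2 adaptor genes. Red circles are mutant arrays, blue squares wild-type arrays, black bars the mean ± SD over 3 arrays and the dashed line the low-signal limit. Fcgr1, Fcgr3, Fcer1g and Tyrobp are higher on all mutant arrays, and Fcgr2b overlaps.

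Both adaptor genes rose. Tyrobp, the DAP12 chain that carries the activation motif for TREM2 and related receptors, stood at 17.8, 11.9 and 13.2 times the array median in mutants, against 3.33, 3.84 and 3.52 in wild type. The groups were well separated, at 1.99 ± 0.18 or 3.96-fold (limma, adjusted p = 1.74e-05). Fcer1g, the FcRγ chain that Fcgr1 and Fcgr3 need for signalling, stood at 7.50, 5.13 and 5.27 in mutants, against 1.55, 0.446 and 1.58 in wild type. The wild-type mean was below the limit, with 2 of 3 arrays just above it, so Fcer1g was at least 3.80-fold higher (difference 2.51 ± 0.42, limma, adjusted p = 0.00273). Without wild-type replicate 2, the lowest array, the Fcer1g difference was 1.91.

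Among pattern and lipid receptors, Trem2 rose beside Cd14. Trem2, a lipid-sensing receptor that pairs with DAP12, stood at 5.24, 6.68 and 6.03 times the array median in mutants, against 3.23, 2.91 and 3.68 in wild type. No array fell below the limit and the groups did not overlap, at 0.87 ± 0.20 or 1.83-fold (limma, adjusted p = 0.0194), the smallest difference of the members that rose. The adjusted p of Trem2 was 0.120, 0.0702 and 0.0596 without mutant replicate 2, mutant replicate 3 and wild-type replicate 2. Clec7a, the β-glucan receptor dectin-1, and Msr1, a scavenger receptor, were below the limit on all 6 arrays, with differences of 0.81 ± 0.50 and -0.37 ± 0.45.

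Of 5 genes grouped under alternative activation, 4 were tested and 1 rose, against 5.68% of all genes tested. Retnla, a secreted protein induced by interleukin-4, stood at 34.6, 5.27 and 4.73 times the array median in mutants, against 0.601, 1.13 and 0.806 in wild type. All wild-type arrays were below the limit, and mutant replicate 1 was far above the other mutants. Retnla was at least 6.32-fold higher (difference 3.54 ± 0.58, limma, adjusted p = 0.00208), and without mutant replicate 1 the difference was 2.61 with an adjusted p of 0.00273. Mrc1, the mannose receptor CD206, stood at 3.21, 2.99 and 1.89 in mutants, against 1.35, 1.20 and 1.22 in wild type. Its groups did not overlap and wild type was below the limit throughout, and the difference of 1.07 ± 0.33 did not pass (limma, adjusted p = 0.089). Lgals3, which encodes galectin-3 and is also expressed by epithelial cells, stood at 3.53, 2.68 and 2.27 in mutants, against 2.46, 3.85 and 2.51 in wild type, overlapping and with a difference of -0.05 ± 0.28 (95% interval from -0.65 to 0.55). Gpnmb, a glycoprotein of lipid-laden macrophages, and the haemoglobin scavenger receptor gene Cd163 were below the limit on all 6 arrays. The Gpnmb difference, from 2 mutant arrays, was 0.46 ± 0.59.

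**Figure D3:**
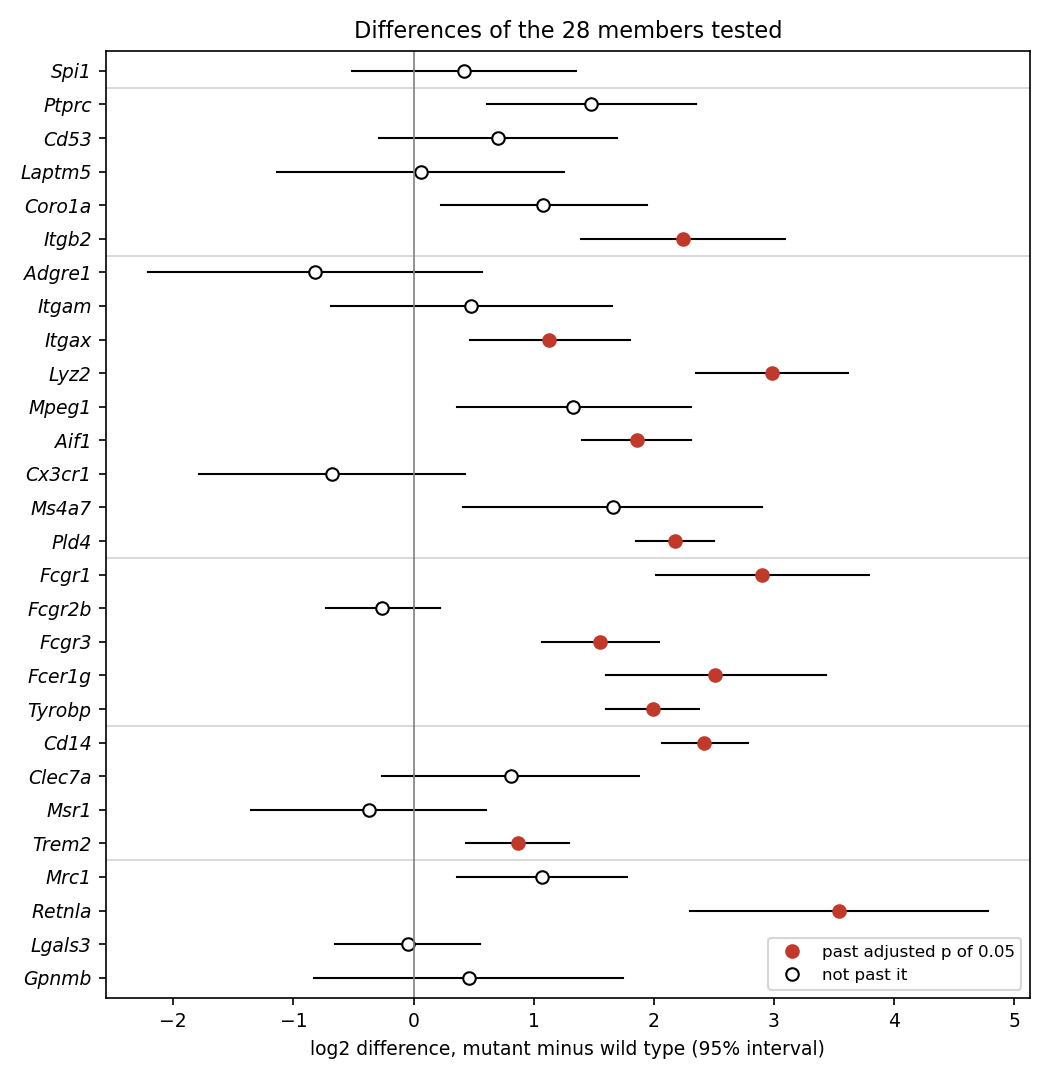
Log2 difference, mutant minus wild type (horizontal axis), of the 28 members tested, with 95% intervals of the limma fit and grey lines between roles. Filled symbols are the 12 genes past an adjusted p of 0.05, between 0.87 for Trem2 and 3.54 for Retnla, and open symbols the 16 that did not pass, between -0.82 for Adgre1 and 1.66 for Ms4a7.

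On the 3 wild-type arrays, 6 of the 12 members that rose were above the low-signal limit throughout, and 2 of the 16 that did not pass (Fcgr2b and Lgals3). Of those 16, 9 had both genotype means below the limit. Without an intensity trend in the prior variance, 5 members rose (Lyz2, Pld4, Aif1, Tyrobp and Cd14), against 0.966% of all genes tested. The limma adjusted p in that fit was 0.0505 for Itgb2, 0.0608 for Fcgr1, 0.0663 for Fcgr3, 0.105 for Fcer1g, 0.122 for Retnla, 0.13 for Trem2 and 0.136 for Itgax, and Retnla had 0.115 with a robust prior variance.

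Mutant replicate 1 was the highest of the mutant arrays for 10 of the 12 members that rose, or 83.3%, against 53.9% of the 822 genes that rose and had values on all mutant arrays. Of the wild-type arrays, replicate 1 was the highest for 1 of the 12 members that rose, replicate 2 for 5 and replicate 3 for 6. Mutant replicate 1 and wild-type replicate 1 shared a sex-linked pattern. The Xist probe stood at 7.98 and 4.64 times the array median on these 2 arrays and at no more than 0.862 on the other 4, and that of the Y-linked Eif2s3y at 0.162 and 0.0435 against 8.05 or more. With only replicates 2 and 3 of each genotype, 11 of the 12 kept their call, with Itgax lost (limma, adjusted p = 0.198), where 3.65% of all genes rose. All 12 kept it with a factor for replicate 1, a fit added after the data had been seen, where 6.84% of all genes rose.

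Genes that work with the members were counted in 6 lists of 128 further genes, of which 97 were tested. Of these 26 rose and 0 fell (limma), against 5.68% and 1.59% of all genes tested, and 43 were higher and 1 lower at an unadjusted p under 0.05, against 14.6% and 6.31%. Under Fc receptor and ITAM signalling 6 of 17 rose. They included the adaptor gene Fyb at 6.81, 4.02 and 3.30 times the array median in mutants, against 0.906, 0.954 and 1.24 in wild type (at least 2.98-fold), the exchange factor gene Vav1 (at least 1.99-fold) and Pirb, an inhibitory receptor (at least 2.53-fold). Under macrophage identity and phagocytosis 12 of 32 rose, led by the protease gene Ctss at 71.3, 44.8 and 40.1 in mutants, against 9.10, 8.95 and 8.34 in wild type (2.52 ± 0.19). Alox5ap, needed for leukotriene synthesis, rose by 2.50 ± 0.40 and the complement gene C1qc by 2.38 ± 0.19.

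Lists of activation states gave 3 calls each, against 5.68% of all genes tested that rose. Of the 24 alternative-activation and 20 classical-activation genes with a probe, 12 and 10 were classed as below the low-signal limit in both genotypes. That class includes Folr2 and Cd40, which were blank on every array. It also includes Pdcd1lg2, whose log2 mean of 0.71 in mutants was above the limit of 0.59, against 0.36 in wild type, but gave no bound. Arg1 and Chil3, of the alternative-activation list and named after their values were seen, were below the limit on every array and too dim to test. Of 16 further alternative-activation genes, those that rose were the chemokine gene Ccl17 (at least 1.44-fold), the scavenger receptor gene Stab1 at 30.9, 27.9 and 23.8 times the array median in mutants, against 10.9, 12.6 and 11.5 in wild type (1.23 ± 0.14), and Tgfb1 (1.22 ± 0.15). Of 15 classical-activation genes, those that rose were the protease gene Casp1 (at least 1.76-fold), the transcription factor gene Irf1 (0.98 ± 0.24) and Nfkbia, an inhibitor of NF-κB (0.65 ± 0.14). Stab1 is also expressed by sinusoidal endothelium, and Tgfb1, Irf1 and Nfkbia by many cell types. Among colony-stimulating factors and their receptors 1 of 12 rose, a share near the 5.68% of all genes tested. That gene was Csf2ra, a chain of the GM-CSF receptor, at 12.5, 10.5 and 8.41 in mutants, against 4.19, 4.81 and 4.76 in wild type. In the phagocyte oxidase list 1 of 5 rose, the small GTPase gene Rac2, which stood at 13, 5.11 and 4.98 in mutants, against 1.83, 1.16 and 1.06 in wild type (at least 4.30-fold).

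**Figure D4:**
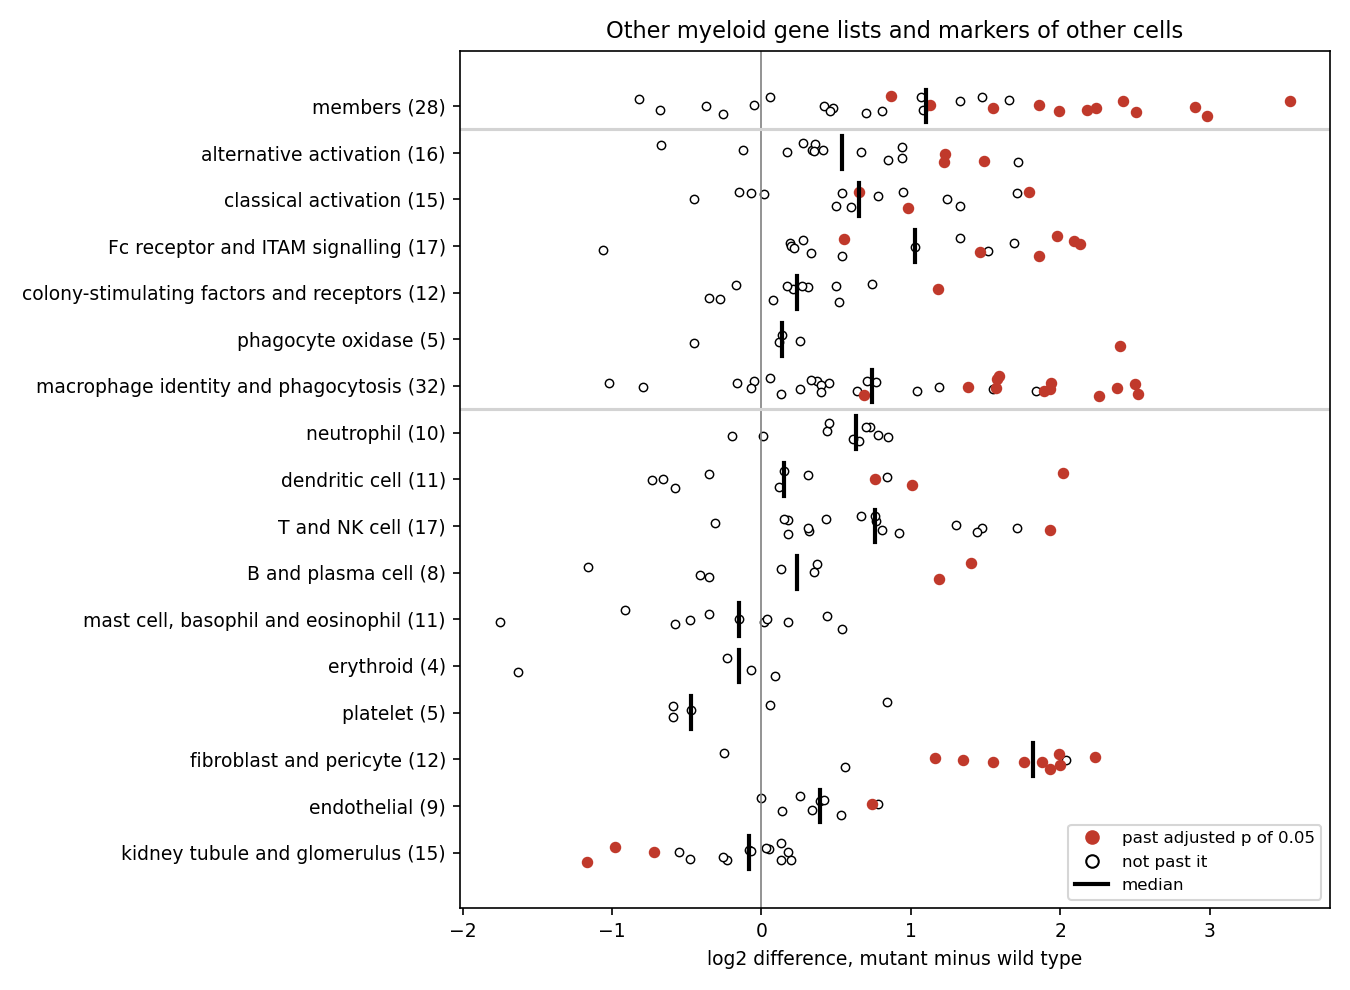
Log2 difference, mutant minus wild type (horizontal axis), of the tested genes of each list, with the number tested in brackets: the members at the top, 6 further myeloid lists in the middle and markers of other cells below. Red points passed an adjusted p of 0.05, open points did not, and black bars are medians, for example 1.11 for the members, 1.82 for fibroblast and pericyte markers and -0.08 for kidney tubule and glomerulus markers.

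Markers of other cells were read on the same arrays, where 5.68% of all genes tested rose and 1.59% fell. At an unadjusted p under 0.05 (limma), 14.6% of all genes were higher and 6.31% lower. Of 12 fibroblast and pericyte markers 9 rose, led by the collagen gene Col1a1 (2.23 ± 0.21) and the matricellular gene Postn (at least 2.41-fold), and the summed intensity of the list ran from 466 to 492 times the array median in mutants and from 130 to 163 in wild type. No neutrophil marker rose among 10 tested (limma, with 2 higher and 0 lower at an unadjusted p under 0.05), 10 of the 13 with a probe were below the limit in both genotypes, and their sum ran from 13.9 to 16.9 in mutants and from 9.72 to 13 in wild type. Among dendritic cell markers 3 of 11 rose, led by the class II regulator Ciita (at least 2.47-fold) and the transcription factor gene Batf3 (1.01 ± 0.25). Their sum ran from 39.4 to 47.2 in mutants and from 31.8 to 35.3 in wild type. The median difference of these 11 was only 0.15, with 7 differences above 0, and 5 were below the limit in both genotypes. At an unadjusted p under 0.05 (limma), 4 were higher and 1 lower. T and NK cell markers gave 1 call of 17, a share near the 5.68% of all genes that rose, the T cell receptor chain Cd3d (at least 2.23-fold), and 14 of 19 were below the limit in both genotypes. Of the 17, 16 had differences above 0, and 5 were higher and 0 lower at an unadjusted p under 0.05 (limma). The median difference of these markers was 0.76, and 0 with genes below the limit set at their bound. Their sum was 47.9, 24.2 and 21.1 in mutants and ran from 15.3 to 19.3 in wild type, so mutant replicate 1 alone stood far above the others. Of 8 B and plasma cell markers 2 rose, the proteoglycan gene Sdc1 (at least 2.36-fold), which epithelia also express, and the immunoglobulin gene Ighm (1.19 ± 0.18), with a sum from 23.2 to 23.4 in mutants and from 15.9 to 17.9 in wild type.

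Kidney tubule and glomerulus markers gave 3 calls of 15, all lower in mutants, against 1.59% of all genes tested that fell. At an unadjusted p under 0.05 (limma), against 14.6% of all genes higher and 6.31% lower, 0 of these markers were higher and 5 lower. Their sum ran from 698 to 792 times the array median in mutants and from 665 to 817 in wild type. Endothelial markers gave 1 call of 9, higher in mutants, against 5.68% of all genes tested that rose. Of these 9 markers, 8 had differences above 0, and 5 were higher and 0 lower at an unadjusted p under 0.05 (limma). Their sum ran from 121 to 132 in mutants and from 90.5 to 107 in wild type. Mast cell, basophil and eosinophil markers (11 tested), erythroid markers (4) and platelet markers (5) gave no call by limma. At an unadjusted p under 0.05, 1, 0 and 1 of them were higher and 1, 1 and 0 lower. Their sums ran from 24.7 to 27.7, from 7.84 to 15.2 and from 3.76 to 5.19 in mutants. In wild type they ran from 24.3 to 35.7, from 12.5 to 20.1 and from 5.03 to 6.00. The summed intensity of the 10 pan-macrophage members ran from 44.1 to 65.1 in mutants and from 13.2 to 15.4 in wild type. Most of the mutant sum came from Lyz2, Pld4 and Aif1, at 19.2, 19.8 and 16.0 of the 65.1 on mutant replicate 1. In both genotypes 5 of the 10 were below the limit. The part that any of these cells has in the levels of the members, Cd14 included, was not tested. Several cell types express Itgax, Itgb2, Ptprc, Fcgr2b and Lgals3, and whether the other members are particular to macrophages was not tested.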

How the data were processed

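Kidney RNA of 6 mice was read on single-colour CodeLink arrays, 1 per animal, grouped by the genotype in the sample titles. The deposited table holds 1 linear intensity per probe and array, as processed by the authors. Array medians between 0.994 and 0.997 and values below 0 are read here as background subtraction and scaling of each array by the authors, an inference from the deposited intensities. The software, background method and flags are not stated there, and the number of arrays limits the precision.

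After division by the array median, log2 was taken of positive values only, with a floor at their 10th percentile (0.29), and the remaining values counted as missing. Subtraction and the floor make dim probes the least reliable. Probes with values on at least 2 arrays per genotype, without the lowest 25% by mean level, were fitted with limma 3.58.1 in R 4.3.3 (lmFit and eBayes, intensity trend, two-sided), and p-values were adjusted over 25834 probes. The same code was tested on simulated data. The low-signal limit is the mode of the linear values (0.521) plus 3 times the spread below it (0.329). For a bound, each dim array was set at the higher of the limit and its own value. The platform annotation named exactly 1 gene for 21590 probes, more than 1 for 681 and none for 12666. By gene identifier, 21462 of the first kind matched RefSeq (GRCm38.p6).

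Members, role groups, lists, tests and the limit were chosen with earlier results of these data known. All members are named, with up to 3 genes past the threshold per further list and up to 2 per list of other cells, by size of difference. Alternatives covered scaling, floor, filters, variance models, array weights, thresholds, a replicate block, a factor for replicate 1, a second probe, and arrays left out.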

Additional observations from a re-analysis of the deposited data

How the results depend on the processing

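Between 10 and 14 of the members rose under every alternative but 1, against 12 in the reported fit, and 0 fell under any. That 1 is the fit with no intensity trend in the prior variance, in which 5 members and 10 genes of the further myeloid lists rose, against 12 and 26. The fit then gives every probe the same prior variance, and 143 of all genes tested rose in place of 840. Under the other alternatives at an adjusted p of 0.05, between 3.36% and 7.5% of all genes tested rose, with between 22 and 32 members tested. The 14 members were counted at an adjusted p of 0.10. At that threshold and at 0.01 the share of all genes was not computed. The median difference of the members stayed between 0.90 and 1.41 over the alternatives. Lyz2, Aif1, Pld4, Tyrobp and Cd14 kept their call under all 22 alternatives, and Itgax lost it under 14, among them quantile scaling (limma, adjusted p = 0.0682) and no floor (0.0556). Ptprc passed with the lowest 50% of probes left out, with a robust prior variance and with array weights (limma, adjusted p between 0.0196 and 0.0434). After quantile scaling 700 of all genes rose and 402 fell, against 840 and 235, and 11 members rose and 0 fell. Over all genes, 526 rose without mutant replicate 1, 476 without mutant replicate 2 and 497 with only replicates 2 and 3, fewer than the reported 840 by over 1.5 times, with 158, 113 and 206 that fell. Without wild-type replicates 2 and 3 and mutant replicate 3, each left out in turn, 149, 123 and 153 fell. In place of the reported 235, 398 fell after cyclic loess, and 353 and 364 fell with array weights and with a replicate block. Arrays of the same number in the mutant and wild-type groups had correlations of 0.072, 0.02 and 0.07 between their deviations from the group means, so the numbers were not taken to pair the animals, although replicate 1 of both groups shares the sex-linked pattern. With a replicate block 11 members rose, and Itgax had a limma adjusted p of 0.051. Probes below the low-signal limit, 13 of 32 members in both genotypes, bound what can be said of those genes.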
